A study of Mus musculus with 12 samples.

Results

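The H3K27ac landscape of the early streak embryo was set against that of the early headfold embryo, with 1 library for each stage. The early streak (ES) list held 36930 H3K27ac peaks and the early headfold (EHF) list 33031, and overlapping or touching peaks of both lists were merged into 41789 regions. Of these, 9421 held ES peaks alone (ES-only regions), 5036 held EHF peaks alone (EHF-only regions) and 27332 held peaks of both stages (shared regions). The ES list is longer: with the same number of peaks taken from each list by −log10 q, there were 6580 ES-only and 6087 EHF-only regions. The 69961 peaks of both lists are part of 442174 peaks in the 12 lists of the series, which covers 6 stages and the marks H3K27ac and H3K4me1.

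The embryos were of the strain C57BL/6, and no allele or treatment is named in the labels. ES embryos were labelled E6.0 and E6.5, and EHF embryos E7.5; between them lie mid-streak (MS), late streak (LS) and OB embryos, the last with no allantoic bud, and before them pre-streak (Pre_PS) embryos. Embryos were staged by morphology, dissociated into single cells and profiled with CoBATCH, in which an antibody against the mark brings the transposase Tn5 to chromatin so that marked DNA is cut and tagged; the peak lists give 1 list per stage. Per the labels' protocols, extraembryonic tissue was taken off Pre_PS, ES, MS and LS embryos, and nothing is stated for OB and EHF, so tissue composition and stage cannot be told apart between ES and EHF. The sources used here do not give the number of embryos and cells behind each list.

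H3K27ac is an acetyl mark on histone H3 that sits on active promoters and enhancers, and H3K4me1 marks enhancers whether active or merely accessible to activation. During gastrulation the pluripotent epiblast passes cells through the primitive streak, where Nodal, Wnt, BMP and FGF signals direct them into mesoderm and endoderm, while the remaining epiblast becomes ectoderm. By the headfold stages the embryo holds cardiac, lateral plate and paraxial mesoderm, the first blood and endothelium, definitive endoderm, the node and neural plate, and Hox genes have begun to be used along the axis.

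The ES list covered 41.4 Mb and the EHF list 36.2 Mb on chromosomes 1 to 19 and X, a ratio of 1.14. Total fragments were not used here, and depth was read from the weakest peaks of each list, which rested on a pileup of 3 fragments over a local background of 0.262 fragments at ES and 0.289 at EHF, a ratio of 1.10. The Pre_PS H3K27ac list was much shallower, with a background of 0.0499 and 14.3 Mb, so absence from it carries little. With 1 library per stage there was no spread between replicates: every difference below is between these libraries, no test or p-value was possible, and 95% Wilson intervals cover counting error only.

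Promoters in the stage-only classes can be read directly. The runs below are the 250 bases before an annotated RefSeq transcript start (build GRCm38.p6, the assembly that mm10 names), written 5′ to 3′ on the gene's strand, with bases under the ES-only or EHF-only region in capitals and other bases in lower case. Tnni1, Egfl7, Elf5 and Ckm are members of the gene lists used below; Alg3, Npy4r and Pomc were chosen after their values were seen, as windows lying wholly under a stage-only region of the stronger 50% of its list. The first is a promoter of Tnni1, the slow skeletal muscle troponin I that the early heart also uses, inside the annotated span of Tnni1 (chr1:135799171-135799420, plus strand, under an EHF-only region).
Tnni1: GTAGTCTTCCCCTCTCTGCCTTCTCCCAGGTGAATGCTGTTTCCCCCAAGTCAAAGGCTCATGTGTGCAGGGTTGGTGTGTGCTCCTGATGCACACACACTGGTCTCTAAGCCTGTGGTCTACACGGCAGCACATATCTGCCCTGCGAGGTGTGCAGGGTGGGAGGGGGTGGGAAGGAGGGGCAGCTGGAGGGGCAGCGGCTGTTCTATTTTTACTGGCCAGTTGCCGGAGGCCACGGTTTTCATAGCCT
The second is the outermost promoter of Egfl7, which encodes a protein secreted by endothelial cells (chr2:26580833-26581082, plus strand, EHF-only region).
Egfl7: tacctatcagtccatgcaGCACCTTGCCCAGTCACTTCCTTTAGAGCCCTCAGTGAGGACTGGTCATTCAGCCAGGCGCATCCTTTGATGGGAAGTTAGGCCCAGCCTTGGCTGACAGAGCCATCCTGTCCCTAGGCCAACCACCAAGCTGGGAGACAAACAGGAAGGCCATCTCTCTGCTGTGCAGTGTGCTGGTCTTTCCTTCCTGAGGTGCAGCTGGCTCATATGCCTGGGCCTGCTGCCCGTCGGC
The third is that of Alg3, a mannosyltransferase of N-glycan assembly (chr16:20610762-20611011, minus strand, EHF-only region).
Alg3: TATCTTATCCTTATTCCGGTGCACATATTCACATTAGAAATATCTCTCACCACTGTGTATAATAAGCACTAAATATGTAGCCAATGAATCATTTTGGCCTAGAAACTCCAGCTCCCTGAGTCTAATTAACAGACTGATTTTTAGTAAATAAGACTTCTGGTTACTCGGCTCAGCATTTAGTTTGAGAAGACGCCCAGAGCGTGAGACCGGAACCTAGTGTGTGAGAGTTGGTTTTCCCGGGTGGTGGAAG
The next 4 lay under ES-only regions. They are Elf5, a transcription factor of the trophoblast (chr2:103411848-103412097, plus strand), Ckm, the muscle creatine kinase (chr7:19410844-19411093, plus strand), Npy4r, a receptor for pancreatic polypeptide (chr14:34152420-34152669, minus strand), and Pomc, the precursor of pituitary peptide hormones (chr12:3954695-3954944, plus strand).
Elf5: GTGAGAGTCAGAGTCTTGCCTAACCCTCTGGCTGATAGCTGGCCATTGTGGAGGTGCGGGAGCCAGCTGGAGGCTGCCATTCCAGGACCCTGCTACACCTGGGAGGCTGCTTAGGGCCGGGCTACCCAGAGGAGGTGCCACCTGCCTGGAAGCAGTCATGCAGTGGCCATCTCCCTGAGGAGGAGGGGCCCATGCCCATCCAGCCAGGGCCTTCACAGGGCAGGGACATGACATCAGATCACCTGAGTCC
Ckm: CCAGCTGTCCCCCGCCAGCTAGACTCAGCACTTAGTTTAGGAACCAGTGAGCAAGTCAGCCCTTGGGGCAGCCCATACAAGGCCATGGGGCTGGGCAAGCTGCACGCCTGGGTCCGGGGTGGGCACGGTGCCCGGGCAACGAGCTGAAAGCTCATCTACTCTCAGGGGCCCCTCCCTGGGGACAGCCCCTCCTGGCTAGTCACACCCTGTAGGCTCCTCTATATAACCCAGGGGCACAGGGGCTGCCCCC
Npy4r: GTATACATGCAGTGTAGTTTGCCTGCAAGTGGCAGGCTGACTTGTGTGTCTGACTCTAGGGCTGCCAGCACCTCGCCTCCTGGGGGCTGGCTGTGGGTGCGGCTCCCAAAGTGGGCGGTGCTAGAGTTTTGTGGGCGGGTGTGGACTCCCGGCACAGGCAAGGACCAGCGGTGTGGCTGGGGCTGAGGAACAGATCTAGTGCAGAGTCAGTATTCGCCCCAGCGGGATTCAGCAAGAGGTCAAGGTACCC
Pomc: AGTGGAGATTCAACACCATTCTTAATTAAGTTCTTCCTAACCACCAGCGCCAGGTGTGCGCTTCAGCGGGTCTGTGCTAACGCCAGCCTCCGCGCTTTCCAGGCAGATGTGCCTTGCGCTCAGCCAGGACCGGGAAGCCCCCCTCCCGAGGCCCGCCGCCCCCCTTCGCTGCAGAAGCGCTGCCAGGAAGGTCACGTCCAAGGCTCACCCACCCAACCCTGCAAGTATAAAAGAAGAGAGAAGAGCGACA

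These 7 windows show how these stage-only promoters looked in the libraries that did not sort them. The regions over the Tnni1, Egfl7, Elf5 and Ckm windows were in the weaker 50% of their lists (−log10 q 5.88, 3.20, 3.35 and 6.40). In that part 29.9% of EHF peaks and 48.8% of ES peaks did not overlap a peak of the other stage. Absence from a list is thus weaker ground for these 4. In the Tnni1 window H3K27ac covered 0 of 250 bases at ES and MS, 250 at LS, 93 at OB and 250 at EHF. In the Egfl7 window it covered 0 bases from ES to LS, 210 at OB and 232 at EHF. The Alg3 window was covered over all 250 bases at MS, LS, OB and EHF, and over 0 at ES. None of the 4 ES-only windows was without the mark after ES: the Npy4r and Ckm windows were covered at MS, LS and OB (250 bases each, but 225 for Npy4r at OB), and the Pomc and Elf5 windows over 0 bases at MS and 250 at both LS and OB. All 4 were listed at 0 at EHF. H3K4me1 covered the Pomc and Npy4r windows over 250 bases at both ES and EHF, and those of Elf5 and Ckm over 218 and 250 bases at ES and 0 at EHF.

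Over the whole genome, few promoters were sorted into the stage-only classes. Of 21045 RefSeq promoters of 300 bases (250 before to 50 after the start, 17274 protein-coding genes), 12253 (58.2%) met a peak at both stages, 333 at ES alone, 316 at EHF alone and 8143 at neither. Of these, 170 lay under an ES-only region and 203 under an EHF-only region; the rest of the single-stage promoters lay under the edge of a shared region. Promoters met at both stages held a median of 22 CpG dinucleotides, those under an EHF-only region 11, those under an ES-only region 8, and all promoters 13. The GC box (GGGCGG, searched on both strands) was in 71.4% of promoters met at both stages, 38.9% (95% Wilson interval 32.5 to 45.8%) of those under EHF-only regions, 36.5% (29.6 to 43.9%) of those under ES-only regions and 46.7% of all. The TATA box (TATAAA, both strands) was in 5.47% of promoters met at both stages, 12.8% (8.89 to 18.1%) under EHF-only regions, 22.4% (16.7 to 29.2%) under ES-only regions and 12.7% of all. In the printed runs TATAAA is found in Pomc and in none of the other 6, against 11.7% of all promoters over the same 250 bases. The E-box CAGCTG, a site that muscle and other basic helix-loop-helix factors can use, was in 14.7% (10.2 to 20.8%) of promoters under ES-only regions, 20.2% (15.3 to 26.2%) under EHF-only regions and 15.7% of all. It is found in the printed runs of Tnni1, Egfl7, Elf5 and Ckm and not in those of Alg3, Npy4r and Pomc; windows of Esrrb and of another Egfl7 promoter, list genes under EHF-only regions that are not printed, lack it. In all, 16 short motifs were searched, and most are not reported here. Another was the T-box motif GGTGTGA, in 8.24% (4.97 to 13.3%) of promoters under ES-only regions. It was in 2.96% (1.36 to 6.30%) under EHF-only regions and 3.67% of all. A match of these letters is a description and no evidence of binding.

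Stage-only regions were narrower and weaker than shared regions, and most lay away from gene ends, although 51.4% of ES-only and 63.2% of EHF-only regions overlapped a gene, against 82.2% of shared regions. Their median width was 436 bp for ES-only and 383 bp for EHF-only regions, against 1100 bp for shared regions. The authors' median fold over background was 4.09 for ES-only regions at ES and 3.92 for EHF-only regions at EHF, against 8.04 at ES and 8.72 at EHF for shared regions. Of ES-only regions 93.4% (92.9 to 93.9%) lay over 1 kb from each end of every protein-coding gene, of EHF-only regions 89.9% (89.1 to 90.7%) and of shared regions 51.2%. More than 100 kb from any gene end lay 22.4% of ES-only, 11.6% of EHF-only and 4.26% of shared regions.

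Whether a peak was found at the other stage depended on its strength within its own list. Each list was ranked by −log10 q and cut into 4 groups of equal size. Of the weakest group of ES peaks 64.7% did not overlap an EHF peak, and of the weakest group of EHF peaks 43.0% did not overlap an ES peak. In the strongest group, 2 of 9233 ES peaks and 1 of 8258 EHF peaks had no partner. In the upper 50% of each list, 402 of 18465 ES peaks (2.18%) and 105 of 16516 EHF peaks (0.636%) were absent from the complete list of the other stage. The lower 50% gave most of the unmatched peaks, 9019 at ES and 4931 at EHF. The 402 and 105 regions that passed this restriction are called strong ES-only and strong EHF-only regions below, and 91.3% and 72.4% of them lay over 1 kb from gene ends. The cut was each list's own median −log10 q, 7.05 at ES and 8.61 at EHF. Strong EHF-only regions thus passed a higher cut, and shares of the 2 strong classes are set beside each other at unlike cuts.

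**Figure D1:**
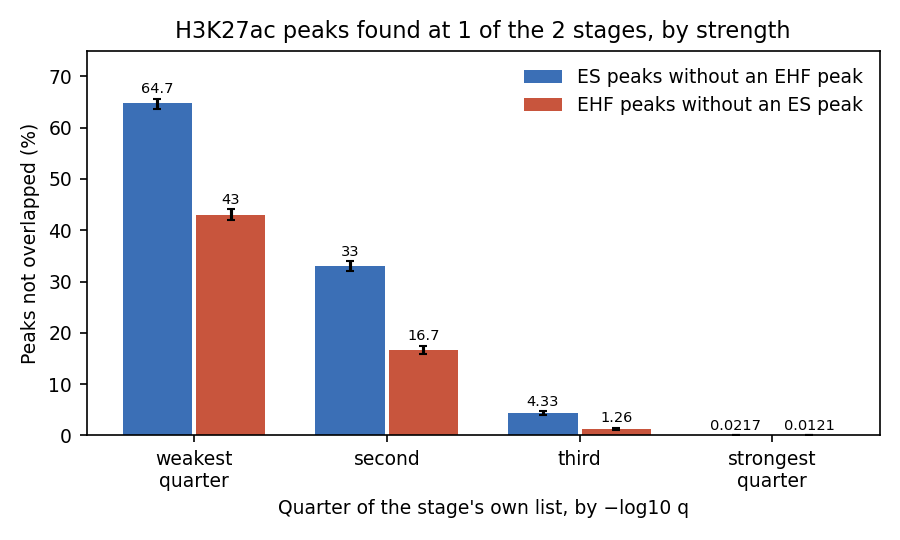
Percent of ES peaks without an overlapping EHF peak (blue) and of EHF peaks without an overlapping ES peak (red), in 4 equal groups of the stage's own list ranked on −log10 q; bars start at 0 and whiskers are 95% Wilson intervals. Unmatched peaks fall from 64.7% and 43.0% in the weakest group to 0.0217% and 0.0121% in the strongest.

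Counted in bases, the lists shared 30.6 of 47.0 Mb, a Jaccard index (bases in both lists divided by bases in at least 1) of 0.652. Of ES bases 74.0% were also covered at EHF, and of EHF bases 84.7% at ES. More than 50% of the bases unique to a stage were edges of shared regions, 52.3% at ES and 59.2% at EHF, and not separate regions. Within the 27332 shared regions the covered length was at least 2-fold longer at EHF in 545 (1.99%) and at least 2-fold longer at ES in 1435 (5.25%).

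Libraries that did not enter the sorting show where the stage-only regions were marked at other times. H3K27ac was found on 27.6% of ES-only regions at MS, 46.8% at LS and 34.5% at OB. On EHF-only regions it was found on 25.6% at MS, 54.8% at LS and 40.5% at OB, and on shared regions on 86.9%, 95.9% and 92.6%. In each of these classes the share was lowest at MS and highest at LS, which is also the order of the lists: MS held 30072 peaks with a background of 0.211 fragments at its weakest peaks, OB 34823 with 0.230 and LS 39635 with 0.330. The part of list size and depth in this order was not tested. Of all ES-only regions 3414 (36.2%), and of EHF-only regions 1575 (31.3%), were in no other H3K27ac list.

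The strong regions were met more often in these libraries. H3K27ac was found on 59.7% of strong ES-only regions at MS, 79.4% at LS and 65.7% at OB, and on 67.6%, 91.4% and 87.6% of strong EHF-only regions. Present at all of MS, LS and OB were 155 of the 402 strong ES-only regions (38.6%) and 63 of the 105 strong EHF-only regions (60.0%). In no other H3K27ac list were 28 strong ES-only regions (6.97%) and 1 strong EHF-only region. At Pre_PS, 8.71% (6.33 to 11.9%) of strong ES-only and 1.90% of strong EHF-only regions carried a peak.

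The enhancer mark H3K4me1 was already present at ES on most regions with an H3K27ac peak in the EHF list alone. It was found at ES on 62.5% and at EHF on 46.9% of EHF-only regions, and on 90.5% and 87.6% of the strong ones. On ES-only regions it was found on 62.0% at ES and 32.4% at EHF, and on the strong ones on 85.6% and 60.2%. The H3K4me1 list covered 49.4 Mb at ES and 39.1 Mb at EHF, so a lower share at EHF moves with the smaller list. The weakest H3K4me1 peaks rested on a pileup of 2 fragments at ES and 3 at EHF, so the ES list admitted weaker peaks. The part of these differences in the shares was not tested. Shared regions carried H3K4me1 in 96.9% at ES and 92.9% at EHF.

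**Figure D2:**
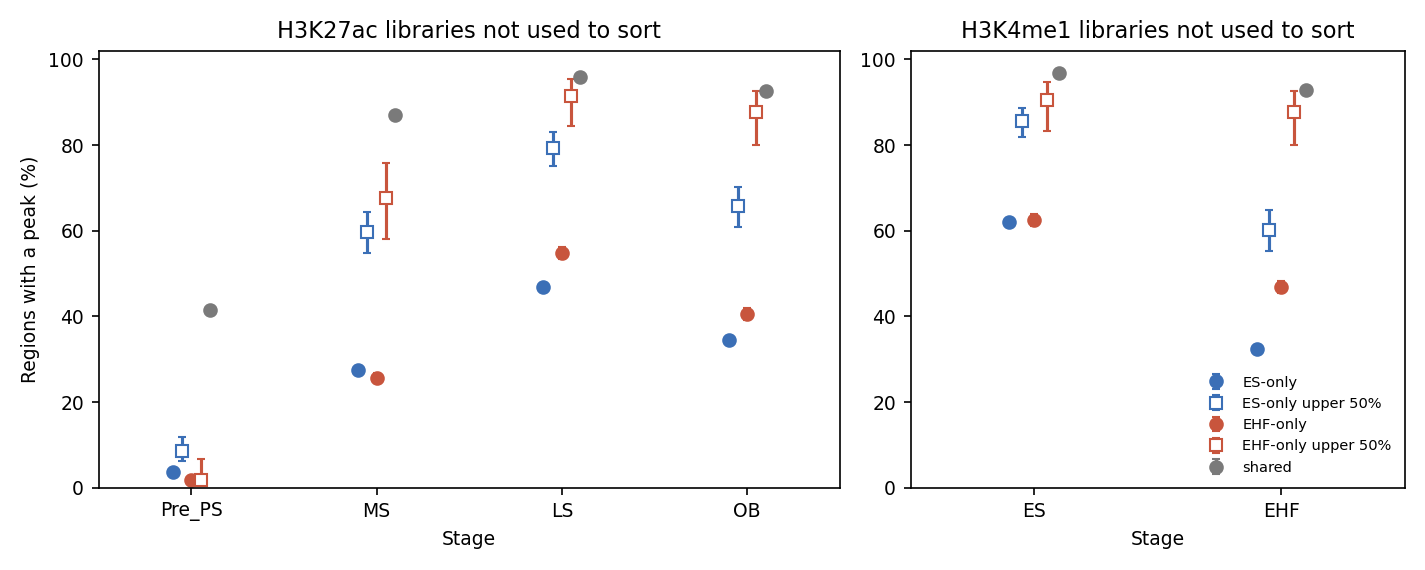
Percent of ES-only (blue), EHF-only (red) and shared (grey) regions that met a peak in libraries not used to sort them, H3K27ac on the left and H3K4me1 on the right; filled circles are all regions of a class, open squares those of the upper 50% of their list, and whiskers are 95% Wilson intervals. Strong regions lie above all regions of their class at MS, LS and OB, and EHF-only regions lie above ES-only regions at LS and OB.

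Of the 6 EHF-only regions with the highest −log10 q, 5 lay at or beside the end of a gene. The highest −log10 q (27.9, fold 15.5) belonged to a 609 bp region over promoters of both Arsk, a lysosomal arylsulfatase, and Ttc37, part of the SKI RNA decay complex (chr13:76098195-76098803); H3K27ac covered 0 bp of it at ES, 609 at MS, 478 at LS and 489 at OB. The next lay at the ends of Rttn, a centriole protein gene (732 bp), Crispld1 (747 bp), the zinc finger gene Zfp472 (651 bp) and the neighbours Rps28 and Ndufa7, which encode a ribosomal and a respiratory complex I protein (640 bp). The other of the 6 lay 53.1 kb from Lao1, an amino acid oxidase gene. All 6 were marked at LS and OB as well, and 5 of 6 at MS; Zfp472 was the exception. H3K4me1 covered 486 to 681 bp of each at ES, where H3K27ac was listed at 0.

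Of the 6 ES-only regions with the highest −log10 q, 5 lay inside genes. The highest −log10 q (23.5, fold 13.9) belonged to a 499 bp region 15.6 kb from Gtpbp4, a ribosome assembly factor (chr13:9011688-9012186); H3K27ac covered 482 bp at Pre_PS, 499 at ES, 388 at MS and 0 at LS, OB and EHF, and H3K4me1 covered 0 at all 6 stages. It was the single one of the 6 that was marked at Pre_PS and MS and then at no later stage. The others lay inside Rsph1 (a radial spoke protein of cilia), Trak1 (a mitochondrial transport adaptor), Ptpre (a tyrosine phosphatase), Smtn (smoothelin, of smooth muscle) and Dnm3 (a dynamin). Those in Ptpre, Smtn and Dnm3 were marked again at MS, LS and OB, for example Dnm3 over 523, 523 and 387 bp of 523.

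Width picked out different regions. The widest ES-only region covered 4440 bp inside Otof, the synaptic vesicle protein of inner hair cells, with 3326 bp at MS, 1881 at LS and 0 at OB. Next came 4329 bp inside Espn, an actin bundler, and 4273 bp inside Pmepa1, an inhibitor of SMAD signalling, which was covered over 2673, 4202 and 2465 bp at MS, LS and OB. The widest EHF-only regions were 3183 bp in Uqcc2, 2916 bp in the cyclin gene Ccnd2 and 2626 bp in Strn4. None of these 6 was in the upper 50% of its list.

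Lineage genes were then looked up in 23 lists of 460 genes (cell type markers, developmental pathways and references). Of the 99 strong EHF-only regions within 100 kb of a gene end, 13 had a list gene as the nearest gene (13.1%, 7.84 to 21.2%). The same share was 9 of 337 strong ES-only regions (2.67%, 1.41 to 5.00%), 4.24% of shared, 4.22% of all EHF-only and 2.64% of all ES-only regions. Counted by gene, 13 of 460 list genes (2.83%) had a strong EHF-only region nearest to one of their ends, against 0.448% of all 21631 protein-coding genes; 9 list genes (1.96%) had a strong ES-only region, against 1.53% of all. The length of the territory around each gene was not matched in these shares. The gene lists were chosen with earlier results of these data known, so the shares are a description and no independent support.

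The 13 strong EHF-only regions near list genes are described one by one. At Cdx2, a caudal factor of the posterior embryo that the trophoblast also uses, a 661 bp region lay inside the gene (chr5:147301535-147302195, fold 9.20); H3K27ac covered 0 bp at ES and MS, 402 at LS, 546 at OB and 661 at EHF. At Meox1, a homeobox gene of somites, a 648 bp region (chr11:101893390-101894037) ran 0, 0, 577, 603 and 648 bp over ES, MS, LS, OB and EHF. In these lists both regions thus first carried an H3K27ac peak at LS and kept it in the lists that followed. The MS list was shorter and shallower than the LS list, so absence from it does not date the onset. Both regions carried H3K4me1 at ES already, over 431 and 479 bp.

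Near Meis2, a TALE partner of Hox proteins, a 518 bp region (chr2:115855767-115856284) had the same order, with 0 at ES and MS and 518, 430 and 518 bp from LS on. Hoxb6, a trunk Hox gene, held a 531 bp region inside it (chr11:96295372-96295902), covered over 531 bp at MS, 0 at LS, 379 at OB and 531 at EHF. A 644 bp region 90.2 kb from Foxf1, a forkhead factor of lateral plate mesoderm (chr8:120993536-120994179), was marked over 421 bp at Pre_PS, 0 at ES and 362, 586 and 533 bp at MS, LS and OB. It was the single one of the 13 present before ES, so for it ES was a gap between marked stages.

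Among signalling genes, regions lay 16.5 kb from the Wnt receptor gene Fzd10 (502 bp at MS, LS and EHF and 432 at OB), inside the retinoid receptor gene Rxra (733 bp at EHF), 9.62 kb from the inhibitory SMAD gene Smad7 (413 bp at each stage from MS) and 26.4 kb from the BMP target gene Id3 (510 bp at EHF). A region 3.33 kb from Tnni1 (538 bp) and one 32.0 kb from the pluripotency factor Sall4 (555 bp) were marked from MS on. The other 2 lay at the shared end of Apoa2, an apolipoprotein of visceral endoderm, and Tomm40l, and inside Araf, where Syn1, a neuronal gene of the adult reference list, had the nearest end. Of the 13, 10 were marked at MS, 12 at LS and 12 at OB, and 12 carried H3K4me1 at ES, where by choice of the class H3K27ac was at 0. The exception for H3K4me1 at ES was the region of Foxf1.

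The 9 strong ES-only regions near list genes included pluripotency and Nodal pathway genes, and each was marked again at LS. A 517 bp region 4.27 kb from Foxd3, a forkhead factor of the epiblast and neural crest (chr4:99662944-99663460), was covered over 517 bp at ES, MS and LS, 298 at OB and 0 at EHF. A 590 bp region in Esrrb, a nuclear receptor of naive pluripotency and trophoblast (chr12:86518693-86519282), was covered over 590, 440, 589 and 516 bp from ES to OB and 0 at EHF. These regions, like those near Sox21, Rarb, Grem1 and 63.3 kb from Pmepa1, were present at ES, MS, LS and OB and missing in the last list.

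A 722 bp region near Etv5, an ETS factor induced by FGF (chr16:22450576-22451297), was covered over 722, 0, 634, 394 and 0 bp from ES to EHF. A 493 bp region inside Pcsk6, a convertase that processes Nodal (chr7:65917835-65918327), was covered over 493, 0, 351, 0 and 0 bp. H3K4me1 was present at ES on all 9 and at EHF on 7; the 2 without it at EHF were these 2. Rxra held a strong region of each kind.

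The stage-only regions of any strength were spread over many genes. Of all genes 24.5% had an ES-only region and 15.6% an EHF-only region nearest to one of their ends within 100 kb. Among lateral plate and extraembryonic mesoderm genes 12 of 20 had an EHF-only region and 5 of 20 an ES-only region. For the BMP pathway it was 12 of 24 and 11 of 24, for Hox and Cdx genes 6 of 36 and 2 of 36, and for the epiblast and pluripotency list 4 of 20 and 8 of 20. The most EHF-only regions in 1 territory were 10 around Hrh1, 9 around Vegfa and Rbm19 and 8 around Sdk2 and Tspan9, although Rbm19 also held 8 ES-only regions and its share was lower at EHF (709 bp per Mb at ES and 556 at EHF); among genes with many ES-only regions were Arhgef10l with 12, and there were 9 around Ephb2 and Prdm16 and 8 around Adgrb1.

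A level per gene was formed as the covered bp in the territory of a gene (the bases nearest to one of its ends, up to 100 kb away) per covered Mb of the list, called the share of the gene. Of 6510 genes with at least 2 kb covered in either list, 154 (2.37%) had a share at least 2-fold higher at EHF and 311 (4.78%) one at least 2-fold higher at ES. The median log2 ratio of EHF over ES over all tested genes was 0.09. Without the scaling to covered Mb, 87 genes were higher at EHF and 471 at ES, so EHF took 15.6% of the calls and not 33.1%, and every log2 ratio was lower by 0.19; list values are therefore read against the median of all genes. Of the 311 genes, 17 were listed at 0 at EHF, so they have no fold. In the upper 50% of the lists, 127 of the 154 genes (82.5%) had the higher share at EHF, against 61.2% of all tested genes. There, 163 of the 311 genes (52.4%) had the lower share at EHF, against 36.2% of all, and 79 (25.4%) the higher one. The upper 50% is part of the lists that gave the calls.

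**Figure D3:**
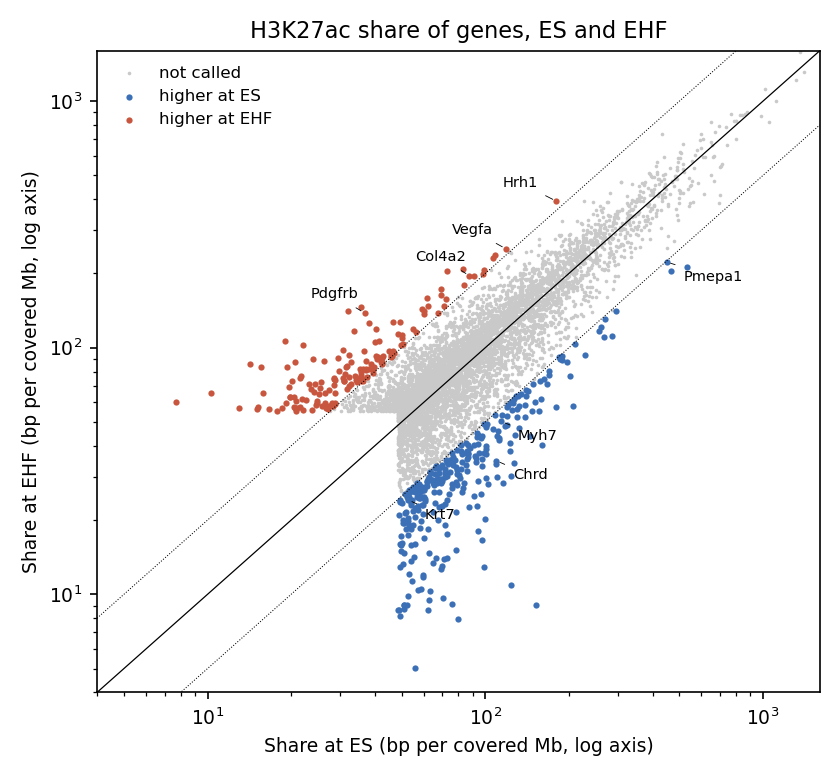
H3K27ac share of each tested gene at ES (x) and EHF (y), in bp per covered Mb on log axes; red points were at least 2-fold higher at EHF, blue points at least 2-fold higher at ES, the solid line marks equal shares and the dotted lines 2-fold. Most genes lie between the dotted lines, and the 17 genes listed at 0 at EHF are not drawn.

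The H3K27ac libraries of MS and OB, which were not used for the calls, carried the same direction only in part. From MS to OB, 57.8% of the 154 genes higher at EHF had the higher share at OB, against 49.7% of all tested genes. Of the 311 genes higher at ES, 52.1% had the lower share at OB, against 50.2% of all. Under H3K4me1, 69.1% of the 311 genes had the lower share at EHF, against 37.7% of all tested genes, and 57 of them (18.3%) passed the same 2-fold rule there, against 3.01% of all. Of the 154 genes, 56.5% had the higher H3K4me1 share at EHF, below the 62.3% of all tested genes. By the 2-fold rule under H3K4me1, 7 of the 154 (4.55%) were higher at EHF, against 1.23% of all tested genes. In the other direction, 9 of the 154 (5.84%) were higher at ES, against 3.01%. Whether both marks came from the same embryos is not stated in the labels.

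The largest differences in favour of EHF that kept their direction in the upper 50% of the lists and from MS to OB were led by Hrh1 and Vegfa. A share higher at OB than at MS was thus a condition of the choice. For Hrh1 that difference was 1.27 bp per Mb, against 212 between EHF and ES. Hrh1, a histamine receptor gene, held shares of 180, 251, 347, 252 and 393 bp per Mb at ES, MS, LS, OB and EHF. Vegfa, the growth factor that directs endothelial cells (chromosome 17), held 119, 104, 137, 174 and 252 bp per Mb over the same stages, from 4916 covered bp at ES and 9111 at EHF. Col4a2, a basement membrane collagen chain that is also a member of the parietal endoderm list, held 87.6, 124, 114, 146 and 196 bp per Mb. For each of these genes EHF was the highest of the 5 libraries.

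Pdgfrb, a receptor for platelet-derived growth factor in mesenchymal cells (chromosome 18), held 36.7, 61.7, 79.4, 95.0 and 138 bp per Mb from ES to EHF, so each later library was above the one before. Podxl, a sialomucin of endothelial and epithelial surfaces, held 61.6, 95.4, 92.0, 122 and 159 bp per Mb. The other genes chosen in this way were Ubxn11, Brf2, Vasn, Numbl, Rcan1, Kcnn4 and Traf3, with shares at EHF from 174 to 238 bp per Mb against 69.4 to 108 at ES. In the upper 50% of the lists the difference stayed positive for the 12 genes, by choice, but shrank for several, to 12.9 bp per Mb for Hrh1 and 10.7 for Kcnn4.

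The largest differences in favour of ES, chosen in the same way, included signalling and metabolic genes. For them a share lower at OB than at MS was a condition of the choice. Pmepa1 (chromosome 2) held 450, 391, 419, 232 and 223 bp per Mb over ES, MS, LS, OB and EHF, so the ES, MS and LS libraries lay together above OB and EHF. Pla2g6, a phospholipase, held 287, 205, 226, 155 and 112 bp per Mb.

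Dsg2, a desmosomal cadherin of epithelia, held 288 to 296 bp per Mb in the 4 libraries from ES to OB and 140 at EHF, so its difference came from the last library. Pdk2, a kinase that restrains pyruvate dehydrogenase, held 127, 29.1, 79.0, 20.5 and 34.1 bp per Mb, with ES and LS high. Also in this group were Plin4, Faim2, Fscn2, Gabra3, Elmo2, Nxph1 and Atp6v1fnb. In the upper 50% of the lists several of these differences were close to 0, such as −0.65 bp per Mb for Elmo2, −3.96 for Pdk2 and −5.40 for Faim2.

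Of the 460 list genes 322 were tested; 15 (4.66%) were higher at EHF, against 2.37% of all tested genes, and 5 (1.55%) were higher at ES, against 4.78%. The 15 included Hoxa2, Hoxa7, Pdgfrb, Tnni1, Sox18, Dlx6, Tgif2, Mfng, Dnd1, Col4a2, Serpinh1 and the housekeeping genes Cox4i1 and Rpl13a. The 5 were Pmepa1, Chrd, Myh7, Krt7 and Elane. As the lists were chosen with earlier results of these data known, these shares are a description. Members counted in several lists are counted in each below.

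**Figure D4:**
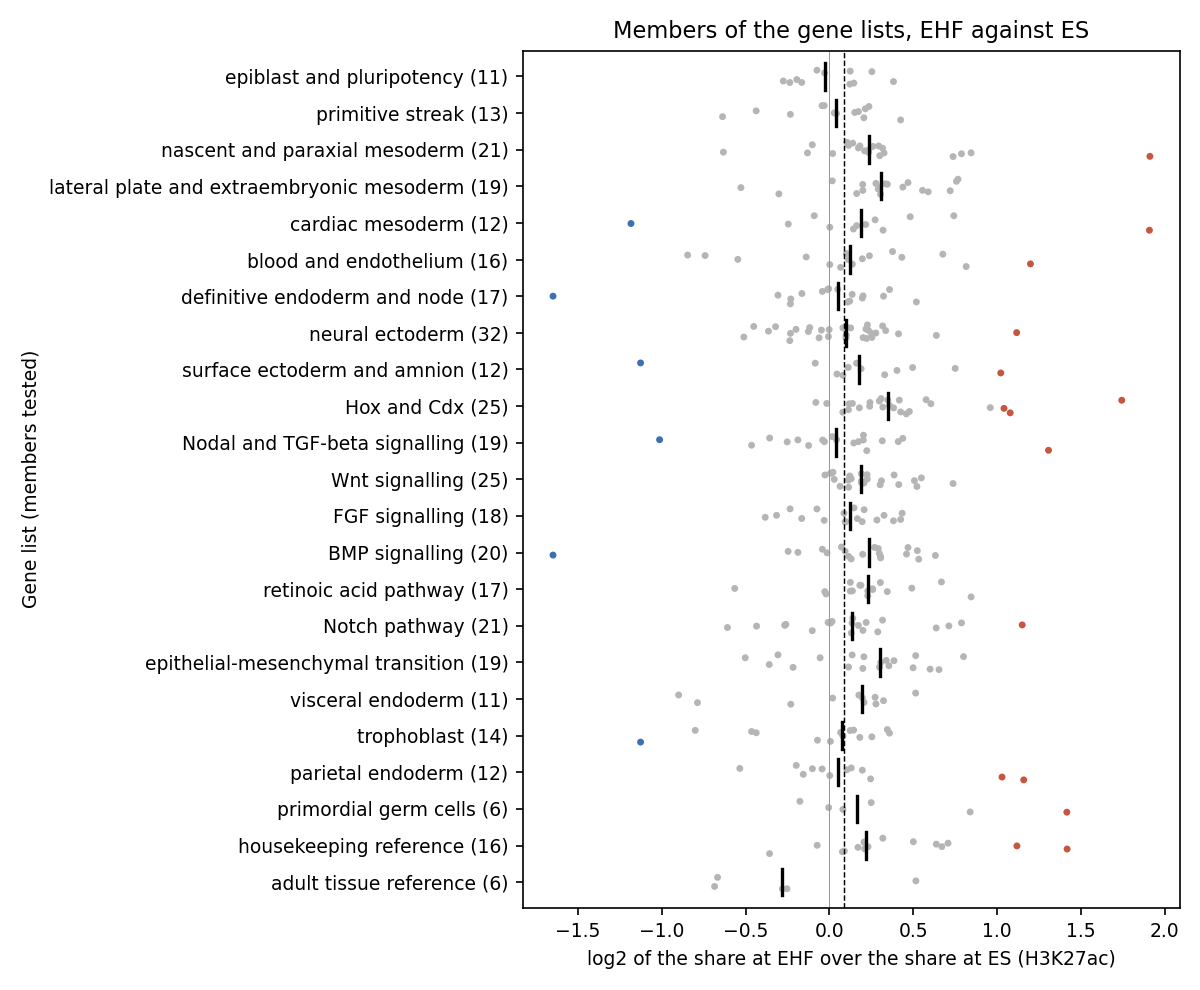
log2 ratio of the H3K27ac share at EHF over that at ES for tested members of the 23 gene lists; points are genes (red at least 2-fold higher at EHF, blue at least 2-fold higher at ES), black bars list medians and the dashed line the median of all tested genes (0.09). The Hox and Cdx list has the highest median (0.35); Elane, listed at 0 at EHF, is not drawn.

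Hox and Cdx genes, which set position along the body axis, had the highest median log2 ratio of the 23 lists, 0.35 over 25 tested members, of which 3 were higher at EHF by the 2-fold rule and 0 at ES. The share was above that at ES for 23 of 25 members, against 58.2% of all tested genes, and without scaling for 18 of 25, against 35.2%; the exceptions were Hoxd10 (90.3 at ES and 85.3 at EHF) and Hoxc9 (77.5 and 76.6). Hoxa2, which patterns the hindbrain, held 28.2, 36.6, 51.9, 54.7 and 58.0 bp per Mb.

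Hoxa7, a trunk Hox gene, held 27.4, 33.8, 32.2, 33.0 and 57.8 bp per Mb, with EHF apart from the rest. Hoxb6, where the strong EHF-only region lay, held 64.3 bp per Mb at ES and 125 at EHF and missed the 2-fold rule. Cdx2 held 128 bp per Mb at ES and 164 at EHF. Under H3K4me1 24 of the 25 members had the higher share at EHF, against 62.3% of all tested genes, with a median log2 ratio of 0.35 against 0.13. From MS to OB, 14 of 25 had the higher share at OB (49.7% of all), with a median of 0.03 against 0.00, so between those libraries the list lay near the rest. Hox genes lie in clusters and their territories are short and adjoining.

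Mesoderm lists lay above the median of all genes as well, as did the housekeeping reference (median log2 ratio 0.22, 14 of 16 tested genes higher at EHF in share). Lateral plate and extraembryonic mesoderm genes had a median log2 ratio of 0.30 over 19 tested, with 17 higher at EHF than at ES in share (15 without scaling) and 0 past the 2-fold rule. Foxf1 held 263 bp per Mb at ES, 180 at MS, 289 at LS, 245 at OB and 356 at EHF. Hand2, a heart and limb factor, held 90.3, 127, 142, 112 and 153 bp per Mb, and Bmp4, a ligand for posterior mesoderm, 134, 189, 198, 194 and 186.

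Nascent and paraxial mesoderm genes had a median of 0.23 over 21 tested, 18 of them higher at EHF in share (12 without scaling), with Pdgfrb past the rule. Aldh1a2, the enzyme that makes retinoic acid, held 55.3 bp per Mb at ES and 97.5 to 127 in the 4 later libraries. Mesp2, a segmentation factor, went the other way, with 77.9 bp per Mb at ES and 50.2 at EHF. From MS to OB the medians of the lateral plate and the paraxial list were 0.02 and 0.07, and under H3K4me1 they were 0.38 and 0.17.

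Of 12 tested cardiac genes 9 had the higher share at EHF (6 without scaling), with a median log2 ratio of 0.19, and 1 passed the 2-fold rule in each direction. Tnni1 held 24.0, 46.7, 88.5, 96.5 and 90.2 bp per Mb from ES to EHF, with the 3 last libraries far above ES. Myh7, the slow myosin heavy chain (chromosome 14), held 114, 105, 82.8, 40.9 and 50.2 bp per Mb, with OB and EHF lowest; in the upper 50% of the lists it had 0 bp covered at both stages, so its difference rests on the weaker peaks. The other tested cardiac genes, among them Nkx2-5 (162 at ES and 137 at EHF), Tbx5 (172 and 161) and Gata4 (128 and 154), did not pass the 2-fold rule.

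In blood and endothelium 1 of 16 tested genes passed the rule, Sox18, an endothelial SOX factor, with 40.3, 66.3, 57.5, 63.7 and 92.6 bp per Mb. Its difference between EHF and ES was 52.2 bp per Mb in the complete lists and 14.5 in their upper 50%. Egfl7, whose promoter is printed above, held 76.7 at ES, 141 at MS, 126 at LS, 111 at OB and 123 at EHF. The receptor gene Kdr held 56.0, 32.4, 25.1, 35.1 and 31.1 bp per Mb, with ES highest. The globin genes Hba-x and Hbb-bh1 were listed at 0 in all 5 libraries.

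Pluripotency and streak lists had medians below the 0.09 of all tested genes, but this was not particular to them. The Nodal and TGF-beta (0.04), definitive endoderm and node (0.05), parietal endoderm (0.05) and trophoblast (0.07) lists also lay below it. So did the adult tissue reference (−0.28). The epiblast and pluripotency list had a median log2 ratio of −0.03 over 11 tested, and the primitive streak list 0.04 over 13, with 0 members past the rule in either. The share was higher at EHF for 5 of 11 pluripotency and 8 of 13 streak genes, against 58.2% of all tested genes. Otx2 held 186 bp per Mb at ES and 158 at EHF, and Sox2 195 and 233. Lhx1, an organiser homeobox gene, had the largest difference of the streak list, with 249, 181, 148, 154 and 160 bp per Mb, and Eomes, a T-box gene of the streak, held 130, 124, 86.9, 97.8 and 96.4. T, the brachyury gene, held 934 covered bp at both stages and was not tested. From MS to OB 0 of the 13 streak genes had the higher share at OB, against 49.7% of all tested genes, with a median of −0.24. The epiblast and pluripotency list went the other way, with 6 of 11 and a median of 0.13. Other lists fell from MS to OB too, such as the neural list (7 of 32, median −0.18). Under H3K4me1, 9 of 11 pluripotency and 8 of 13 streak genes had the higher share at EHF, against 62.3% of all.

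Node and ectoderm genes gave few calls. Chrd, a BMP antagonist of the node (chromosome 16), held 109, 50.7, 63.8, 66.8 and 34.8 bp per Mb and was the 1 called gene of 17 in the definitive endoderm and node list and of 20 in the BMP list; in the upper 50% of the lists its difference changed sign to 5.96 bp per Mb. In the neural list 1 of 32 tested genes was higher at EHF by the 2-fold rule, and the median log2 ratio was 0.10. In surface ectoderm Dlx6 held 46.9 at ES and 95.2 at EHF, and Krt7, a keratin of simple epithelia that the trophoblast list also holds, 52.7 and 24.2.

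Signalling lists gave 1 called gene at most in each direction. In the Nodal and TGF-beta list, the co-repressor gene Tgif2 held 28.4 bp per Mb at ES and 70.3 at EHF, while Pmepa1 was higher at ES. In the Notch list, Mfng, a glycosyltransferase that modifies Notch receptors, held 41.2 at ES and 91.4 at EHF. In Wnt signalling 24 of 25 tested genes had the higher share at EHF but 11 of 25 the higher covered bp without scaling, with a median log2 ratio of 0.19 that turned to −0.0045 unscaled, and 0 passed the rule; Nkd1, a feedback inhibitor, had the largest difference (172 and 244). In the FGF list Fgfr4 (175 and 134) and in the retinoic acid list Rxra (277 and 389) differed most, both short of 2-fold, and in the upper 50% of the lists Rxra turned to a difference of −45.7 bp per Mb. In the epithelial-mesenchymal transition list, with a median of 0.30 over 19 tested genes, 0 passed the rule; the junction protein gene Tjp1 differed most (67.8 and 118).

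**Figure D5:**
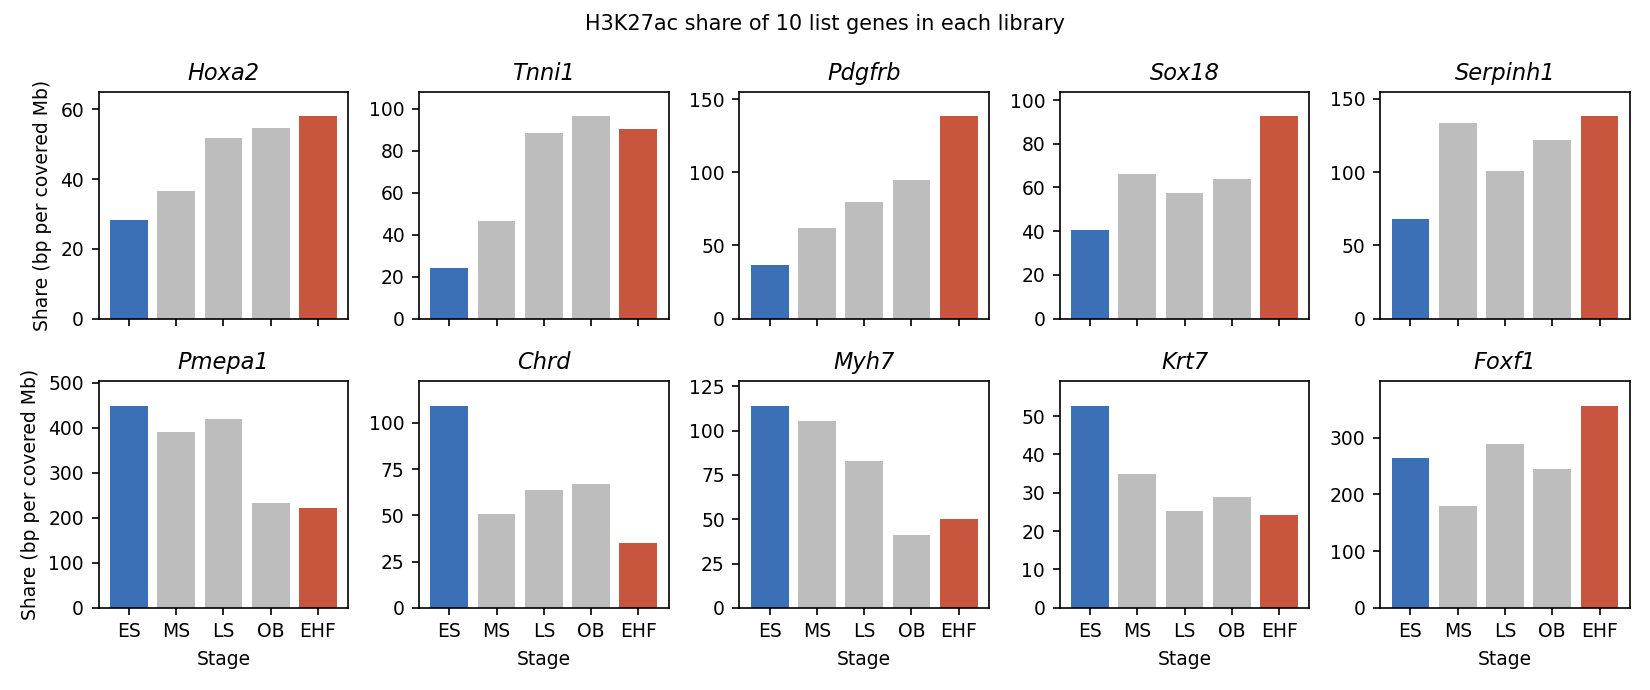
H3K27ac share, in bp per covered Mb, of 10 list genes in the libraries from ES (blue) through MS, LS and OB (grey) to EHF (red), each bar 1 library without replicates. In the top row ES is the lowest bar; below, ES is the highest for Pmepa1, Chrd, Myh7 and Krt7, and EHF for Foxf1.

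Shared regions, which by definition hold a peak at both stages, can differ in extent, and near list genes few did by 2-fold. Of 1109 shared regions nearest to a list gene, 33 (2.98%) were covered over at least 2-fold more bp at EHF, against 1.97% of all shared regions within 100 kb of a gene end, and 48 (4.33%) over at least 2-fold more at ES, against 5.11%. A region 0.5 kb from Rxra (chr2:27759339-27762839) was covered over 496 bp at ES, 395 to 627 bp at MS, LS and OB, and 3501 bp at EHF.

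The region over Mfng was covered over 1158 bp at ES and 3671 at EHF. In the other direction, regions near Myh7 (4135 bp at ES and 806 at EHF), Apoe (3965 and 1674) and Meis1 (3434 and 1222) were wider at ES, and for Meis1 the MS, LS and OB libraries covered 974 to 1217 bp. The widest shared region nearest to a list gene, over Rara, was covered over 9468 bp at ES and 10770 at EHF, and that over Jag2, a Notch ligand gene, over 10771 and 10371. These regions were chosen after their values were seen.

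Markers of extraembryonic tissue and reference genes moved as follows. The summed share of 23 trophoblast genes was 2963 bp per Mb at ES and 2951 at EHF, that of 24 visceral endoderm genes 1239 and 1331, and that of 16 parietal endoderm genes 1264 and 1404. In these lists 0, 0 and 2 genes were higher at EHF by the 2-fold rule (Serpinh1, a collagen chaperone, with 67.7 and 138 bp per Mb, and Col4a2), and 1, 0 and 0 higher at ES (Krt7). Listed at 0 were 6 of 24 visceral endoderm genes at ES and 5 at EHF, and 6 of 23 trophoblast genes at ES and 7 at EHF. The other members of both lists had covered bases. Among the genes at 0 at both stages were Afp, Ttr and Cubn for visceral endoderm and Tpbpa, Prl3d1 and Rhox5 for trophoblast. Apoa2 was listed at 0 at ES only and Elf5 at EHF only. The housekeeping reference had a median log2 ratio of 0.22 over 16 tested genes, above the median of all genes (14 of 16 higher at EHF in share, 11 without scaling), with Cox4i1 (37.3 and 81.0 bp per Mb) and Rpl13a (32.9 and 87.9) past the rule. The adult tissue reference had 6 tested genes of 27 and a median of −0.28; Elane, a neutrophil protease, had 2199 bp covered at ES, 2174 at LS and 0 at MS, OB and EHF. The part of tissue composition in the list values was not tested.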

How the data were processed

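Chromatin was profiled by CoBATCH in C57BL/6 mouse embryos of 6 gastrulation stages with antibodies against H3K27ac and H3K4me1, and the authors deposited 1 broad peak list for each stage and mark. Bowtie2, Picard, MACS2 and deepTools and the build mm10 are named in the submitters' processing notes; for versions and settings, nothing was given in the sources used here. Each deposited row holds a position, a fold over background (a ratio), −log10 p and −log10 q, and a score, all computed by the authors with no control library named. The score was not used, and fold and −log10 q, the authors' own values, served only to rank or describe peaks within 1 list.

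Peaks on chromosomes 1 to 19 and X were kept, which left out 48 ES and 37 EHF peaks. Overlapping or touching peaks were merged, with 1 bp of overlap as shared. Distances ran to the nearest end of 21631 RefSeq protein-coding genes (GRCm38.p6). A territory was the bases nearest to a gene's ends, up to 100 kb away; a gene was tested with at least 2 kb covered in either list and called at 2-fold in bp per covered Mb. No test or p-value was computed, since each stage had 1 library, and fewer marked cells and less signal per cell cannot be told apart. The members and the gene lists were chosen with earlier results of these data known.

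Genes and regions were named by a rule: the 12 called genes per direction with the largest difference that kept its direction in the upper 50% of the lists and from MS to OB; up to 4 called members per list and direction, or the member with the largest difference where none was called; the 6 stage-only regions per class with the highest −log10 q and the 3 widest; and the 5 genes with the most stage-only regions. Some results that this rule names are not reported here. Other genes were named as list members, for their background role, with their values known. Alternatives changed the peak set, merging, overlap, territory, minimum, fold and scaling. On simulated data for ES against EHF, 41789 of 41789 regions were sorted as made, and 199 of 200 genes with changed coverage were called among 6058 genes (214 calls in all). In this simulation whole regions were removed, coverage was cut well past the 2-fold rule and no noise was added. The counts therefore check the code, and not calls made from single libraries. Python 3.11.15, numpy 2.4.6, pandas 2.3.3, scipy 1.17.1 and matplotlib 3.10.9 were used.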

Additional observations from a re-analysis of the deposited data

How the results depend on the processing

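Restricting both lists to their upper 50% gave 3258 ES-only, 1227 EHF-only and 15148 shared regions, with 76.1% and 70.9% of the stage-only regions over 1 kb from gene ends and a Jaccard index of 0.705. Taking the upper 50% against the complete other list gave 402 and 105 regions, 91.3% and 72.4% of them over 1 kb away. In that setting H3K27ac was found on 59.7% of ES-only regions at MS and 65.7% at OB, and on 67.6% and 87.6% of EHF-only regions. When at least 50% of a region had to be covered, the shares were 24.4% and 28.8% for ES-only and 23.5% and 37.0% for EHF-only regions. The counts of genes higher at EHF and at ES were 289 and 603 with a minimum of 1 kb, 33 and 96 at 3-fold, and 87 and 471 without scaling. With the same number of peaks in each list, 40.6% of the calls were higher at EHF, against 33.1%.

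Of 56 named genes, the difference between EHF and ES kept its direction for all 56 without the weakest peaks and with the same number of peaks. In the upper 50% it stayed within 1.5 times its value for 17 genes, moved further for 36, among them Myh7 and Elane to 0, and reversed for 3; in a 20 kb territory it stayed for 40, moved for 14, among them Gabra3 to 0, and reversed for 2. It reversed in the upper 50% for Chrd (5.96 bp per Mb), Rxra (−45.7) and Tspan9 (−36.9), and in a 20 kb territory for Tspan9 (−47.0) and Ephb2 (45.1). The 12 genes per direction named for the largest differences were chosen to keep their direction in the upper 50%, so they could not reverse there. Over all called genes, 79 of the 311 higher at ES and 18 of the 154 higher at EHF had the opposite direction in the upper 50%. The cause of these changes was not tested. No paired analysis was possible because each stage had 1 library and no test was run, and no library could be left out for the same reason. In the ES and EHF H3K27ac lists, peaks at the weakest level rest on a pileup of 3 fragments, which limits what absence from a list shows.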
